A study of Mus musculus with 4 samples.

Results

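The genes of 9 dendritic cell (DC), monocyte and macrophage lineage transcription factors were followed over 4 arrays of mouse bone marrow-derived DCs. They were Zbtb46, Irf4, Irf8, Batf3, Id2, Spi1, Klf4, Runx3 and Cebpb, taken by name as factors known to direct these lineages. The choice was made with earlier results of these data known. Every probe set annotated to exactly 1 of the 9 symbols was used. This gave 19 probe sets of 34945 with a single symbol, and 9 genes of 18193. The cells were grown from marrow for 6 to 7 days with GM-CSF at 20 ng/mL and enriched for the integrin CD11c with magnetic beads. The groups were wild-type cells given a further 24 h of GM-CSF at 10 ng/mL and nothing else (WT control), wild-type cells with lipopolysaccharide, a bacterial Toll-like receptor 4 ligand, added at 100 ng/mL (WT LPS), and the same 2 treatments of cells with combined deficiency of the liver X receptors LXRα and LXRβ (LXR-DKO control and LXR-DKO LPS). The strain was given as C57/BL6 for all 4, and the age, sex and number of mice behind each culture are not given in the sources used here. LXRs are nuclear receptors activated by oxysterols.

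DCs and macrophages arise from shared precursors, and a small set of transcription factors sets which fate a cell takes. PU.1, made from Spi1, opens myeloid genes in all of them. The interferon regulatory factors IRF8 and IRF4 bind together with PU.1 or with BATF-type partners, IRF8 with BATF3 being known for type 1 conventional DCs (cDC1) and IRF4, with KLF4, for type 2 conventional DCs (cDC2) and DCs made from monocytes. ZBTB46 marks the conventional DC lineage. ID2 holds E proteins inactive, RUNX3 acts with the partner CBFβ, and C/EBPβ and KLF4 are factors of monocytes and macrophages.

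Each group had 1 array. The differences therefore have no replicates behind them and carry no test, and having only 4 arrays limits how precise they are. Values are deposited signals on a linear scale. A floor was set at 28.9, the median of all signals, and a ratio with a value below the floor is written as "at least". As an internal error, probe sets for 1 gene were compared by their log2 ratios, which gave a pooled SD of 0.29 and 0.42 for the LPS responses in WT and LXR-DKO, and of 0.46 and 0.54 for the genotype difference without and with LPS. This SD covers nothing that differs between cultures. Nr1h3, the gene of LXRα, had 1 probe set with signals of 108.6 (WT control), 54.5 (WT LPS), 40.4 (LXR-DKO control) and 27.0 (LXR-DKO LPS), and whether it lies in the deleted part is not known here. The CD11c gene Itgax stood between 3848.1 and 6093.0 on the 4 arrays.

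The promoters of Zbtb46, Irf4 and Irf8 are shown because these genes had the 3 highest ratios of LXR-DKO over WT with LPS. Sequences are from RefSeq on GRCm38.p6 and run 5′ to 3′ from 250 bases before to 50 after the start site. Capitals mark every match, on either strand, to one of the motifs listed after them. Zbtb46 lies on the minus strand at chr2:181424339-181424638, Irf4 on the plus strand at chr13:30748983-30749282 and the first of 2 Irf8 windows on the plus strand at chr8:120736108-120736407.
Zbtb46: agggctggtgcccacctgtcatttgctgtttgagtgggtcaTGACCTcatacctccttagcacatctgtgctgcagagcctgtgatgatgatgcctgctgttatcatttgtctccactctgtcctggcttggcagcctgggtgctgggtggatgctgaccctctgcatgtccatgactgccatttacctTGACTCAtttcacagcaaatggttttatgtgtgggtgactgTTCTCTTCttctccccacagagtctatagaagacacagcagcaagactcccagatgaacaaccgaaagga
Irf4: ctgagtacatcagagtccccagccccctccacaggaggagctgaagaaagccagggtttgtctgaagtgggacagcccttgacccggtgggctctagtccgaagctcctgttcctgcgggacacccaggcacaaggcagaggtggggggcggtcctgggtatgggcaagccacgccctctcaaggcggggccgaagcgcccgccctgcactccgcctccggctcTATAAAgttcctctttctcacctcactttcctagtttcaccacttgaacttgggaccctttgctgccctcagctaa
Irf8: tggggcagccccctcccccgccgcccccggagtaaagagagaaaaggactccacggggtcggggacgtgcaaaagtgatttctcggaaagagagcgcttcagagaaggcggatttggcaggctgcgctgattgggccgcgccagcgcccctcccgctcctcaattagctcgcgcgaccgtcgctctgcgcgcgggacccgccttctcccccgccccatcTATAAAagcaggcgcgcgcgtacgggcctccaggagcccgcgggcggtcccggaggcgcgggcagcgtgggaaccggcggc

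Promoter windows were found for 8 of the 9 genes, 10 windows in all. The motifs searched were AGGAAGT for ETS factors such as PU.1, TGANTCA for AP-1 and BATF dimers, GAANNGAA for an IRF repeat, GGAANNGAA for an ETS and IRF composite (which contains letters of the IRF repeat), TTGCNNAA for C/EBP, GGGANTTCC for NF-kappaB and AGGTCA for a single nuclear receptor element. TATAAA, the TATA box, was added after the sequences were seen. Zbtb46 held AGGTCA at -209, TGANTCA at -61 and GAANNGAA at -20 from the start site. These letters occur in 16.3%, 7.81% and 20.1% of all 32851 windows of this length. TATAAA occurred in 3 of the 10 windows, those of Irf4 at -26, Irf8 at -31 and Cebpb at 21, against 13.6% of all windows. The other motifs had no match in the 10 windows, and they occur in 9.35% (AGGAAGT), 8.24% (GGAANNGAA), 10.8% (TTGCNNAA) and 1.68% (GGGANTTCC) of all windows. A match describes letters only.

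The first comparison asked how the lineage factors differed between LXR-DKO and WT cells kept without LPS. Zbtb46, Irf4, Runx3 and Irf8 were higher in LXR-DKO by 7.76-fold, 6.87-fold, 4.77-fold and 2.26-fold, and Cebpb was 2.40-fold lower. So 4 of 9 genes were at least 2-fold higher, where 12.7% of 11728 measured genes were, and 1 of 9 was at least 2-fold lower, where 9.28% were. As the 9 genes were chosen with earlier results of these data known, setting them beside all genes is not independent of that choice. The median log2 ratio of the 9 was 0.995, beside 0.045 over all measured genes. That median is the value of Spi1, which lay just short of 2-fold. The count of 4 was 3 with 75th percentile scaling, where Irf8 fell short at 0.988, and 3 with a floor of 177.4, where Zbtb46 did at 0.786. With LPS the counts were the same, 4 of 9 at least 2-fold higher beside 17.8% of 12014 genes and 1 of 9 lower beside 8.76%, with a median of 0.91 beside 0.15 over all genes. As these are bulk cultures, more cells of a type and more RNA per cell cannot be told apart.

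**Figure D1:**
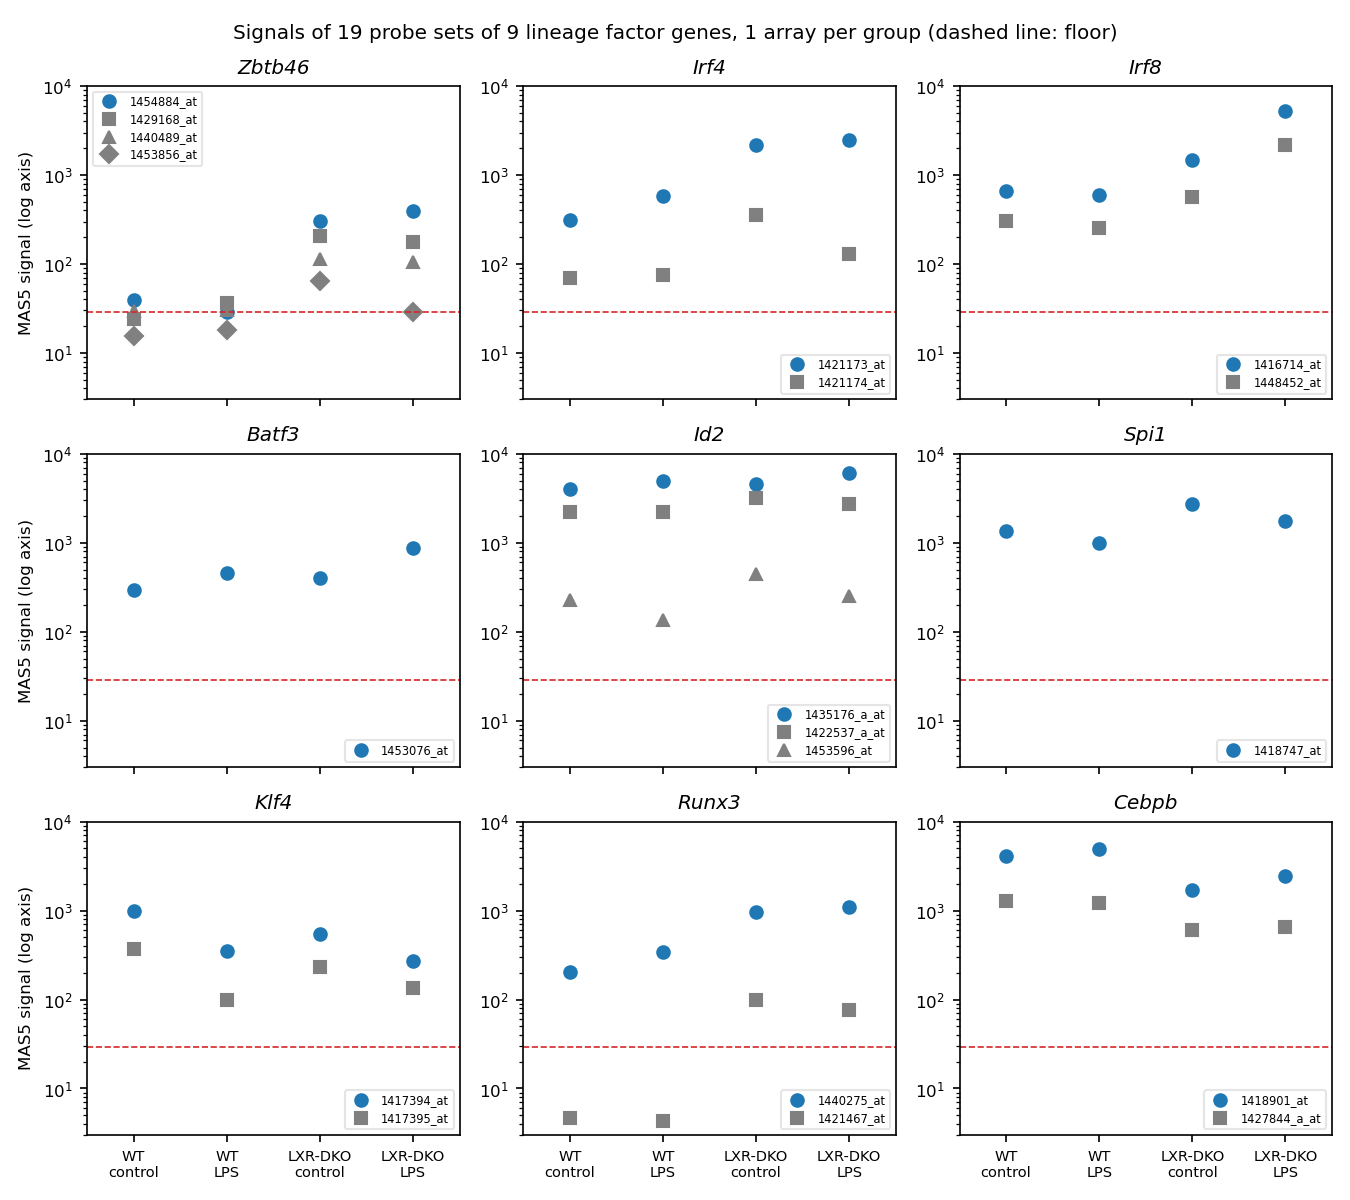
MAS5 signal (log axis) of each of the 19 probe sets on each of the 4 arrays, 1 panel per gene; blue points are the probe set used for the gene, grey points its other probe sets and the dashed line the floor of 28.9. Zbtb46 lies near or below the floor in both WT cultures, and Irf8 stands out on the LXR-DKO LPS array at 5223.9.

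Zbtb46 encodes the zinc finger factor that marks conventional DCs. Its brightest probe set gave 39.4 (WT control), 29.0 (WT LPS), 305.9 (LXR-DKO control) and 393.3 (LXR-DKO LPS). Both WT values sat close to the floor, and both LXR-DKO values were far above it. With WT values this near the floor, Zbtb46 could not have been counted as 2-fold lower. A second probe set gave 23.8 and 36.7 in WT and 206.0 and 178.3 in LXR-DKO, and another gave 29.6 and 30.4 against 114.1 and 104.5. The fourth, at 15.7 and 18.3 in WT, gave 63.9 without LPS in LXR-DKO and 28.7 with it, so it gives no ratio with LPS. Over its probe sets, the log2 genotype ratio (LXR-DKO over WT) without LPS ran from at least 1.14 to 2.96, and with LPS from 1.78 to 3.76 over the 3 that reached the floor. Of all measured genes, 1.28% had a higher ratio than Zbtb46 without LPS and 0.957% with LPS. The size rests on WT values near background: with the floor at the 75th percentile of signals, 177.4, the log2 ratios were 0.79 and 1.15.

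Irf4 encodes the IRF of cDC2 and monocyte-derived DCs. The brighter of its probe sets gave 313.1 (WT control), 578.9 (WT LPS), 2150.8 (LXR-DKO control) and 2473.5 (LXR-DKO LPS). Its lowest LXR-DKO value was thus above its highest WT value. The dimmer probe set gave 69.4, 74.9, 353.5 and 130.6 on the same arrays, and there too both LXR-DKO values were the higher ones. The log2 ratios without LPS were 2.78 and 2.35 on the 2 probe sets, and with LPS 2.10 and 0.80. The probe sets therefore differed by more than the pooled SD with LPS, and by less than it without.

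Irf8 encodes the IRF known for cDC1 and monocytes. Its signals were 653.5 (WT control), 590.0 (WT LPS), 1477.8 (LXR-DKO control) and 5223.9 (LXR-DKO LPS). The second probe set followed the same order at 304.4, 252.6, 572.2 and 2145.0. WT cells with and without LPS differed by less than the spread between probe sets, and the LXR-DKO LPS array was highest on both. The log2 genotype ratio was 1.18 and 0.91 without LPS and 3.15 and 3.09 with LPS, a difference of 8.85-fold on the brighter probe set.

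Runx3 encodes a runt-domain factor of cDCs and lymphocytes. The brighter probe set gave 203.1 (WT control), 338.5 (WT LPS), 968.2 (LXR-DKO control) and 1101.9 (LXR-DKO LPS). The other was below the floor in WT at 4.7 and 4.3 and reached 99.7 and 75.5 in LXR-DKO. Both probe sets thus placed both LXR-DKO arrays above both WT arrays. The log2 ratios were 2.25 and at least 1.79 without LPS, and 1.70 and at least 1.39 with LPS.

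Cebpb, for C/EBPβ, went the other way. It gave 4135.1 (WT control), 4897.8 (WT LPS), 1720.5 (LXR-DKO control) and 2445.2 (LXR-DKO LPS). The second probe set gave 1283.5, 1209.6, 598.6 and 646.5. On both probe sets the 2 WT arrays were above the 2 LXR-DKO arrays. The log2 ratios were -1.27 and -1.10 without LPS and -1.002 and -0.90 with LPS, so that the count of lower genes with LPS rests on a value at the 2-fold line. It was 0 of 9 under quantile normalization, hybridisation control scaling, the median over probe sets and without a floor.

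Spi1, for PU.1, had 1 probe set. Its signals were 1367.9 (WT control), 999.0 (WT LPS), 2726.3 (LXR-DKO control) and 1769.2 (LXR-DKO LPS), so both LXR-DKO arrays were above both WT arrays. The log2 ratios of LXR-DKO over WT were 0.995 without and 0.82 with LPS, above the spread between probe sets and short of 2-fold. Batf3, the AP-1 factor that acts with IRF8, also had a single probe set. It gave 291.8, 461.5, 402.4 and 865.0 in WT control, WT LPS, LXR-DKO control and LXR-DKO LPS, and the WT LPS array was above the LXR-DKO control array. Its genotype ratios were 0.46 without LPS, about the pooled SD, and 0.91 with LPS.

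Id2, for the inhibitor of E proteins, differed little between genotypes on its brightest probe set. That probe set gave 3995.8, 4882.1, 4617.0 and 6004.7 in WT control, WT LPS, LXR-DKO control and LXR-DKO LPS, with genotype ratios of 0.21 and 0.30. The dimmest of its 3 probe sets gave 227.8, 137.0, 450.0 and 251.2, with ratios of 0.98 and 0.87. All 3 were above 0 in both conditions, at sizes from 0.21 to 0.98. Klf4, for the monocyte factor KLF4, gave 975.3 (WT control), 352.4 (WT LPS), 548.1 (LXR-DKO control) and 273.3 (LXR-DKO LPS). The second probe set gave 365.3, 97.6, 230.5 and 135.4. The genotype ratios without LPS were -0.83 and -0.66, while those with LPS were -0.37 and 0.47 and had no common sign.

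**Figure D2:**
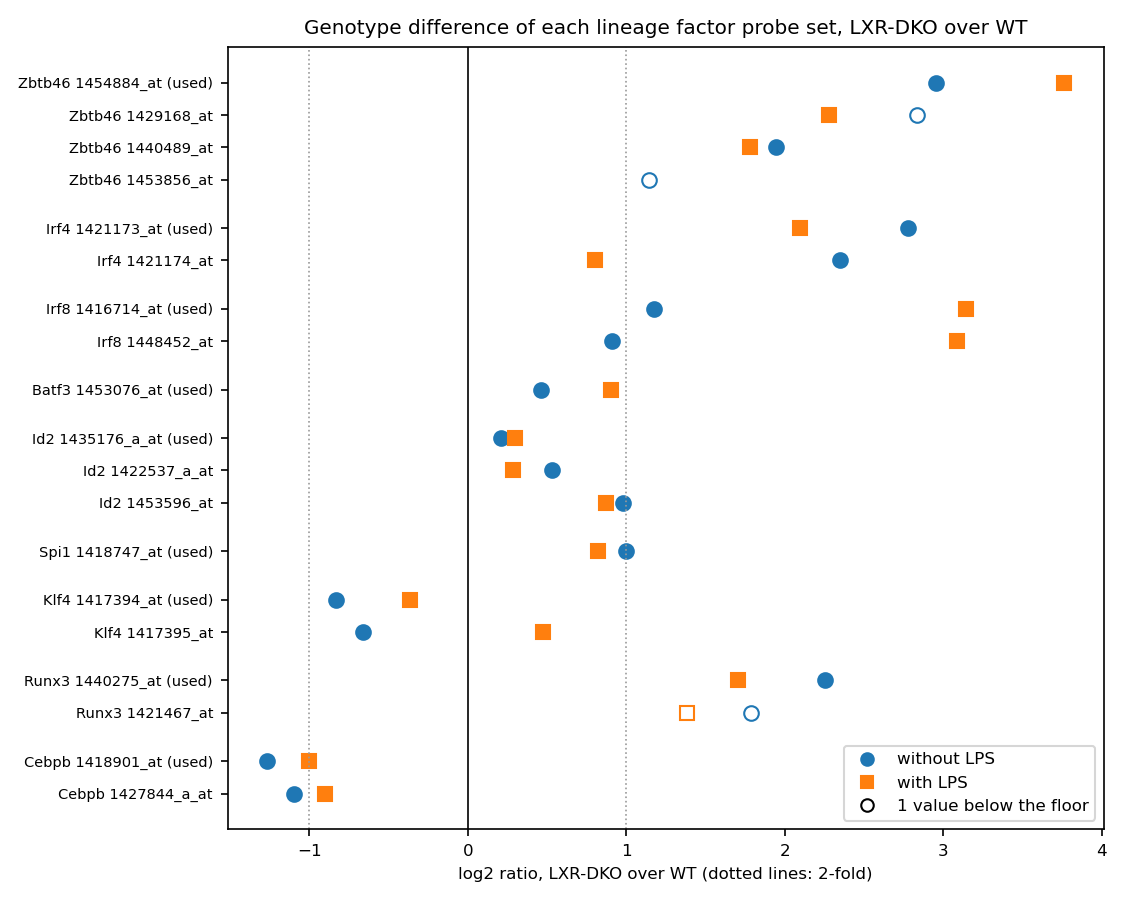
Log2 ratio of LXR-DKO over WT (horizontal axis) for each probe set of the 9 genes, without LPS (circles) and with LPS (squares); open symbols have 1 value below the floor, a pair with both values below it is not drawn, and dotted lines mark 2-fold. Every drawn point of Zbtb46, Irf4, Irf8 and Runx3 lies above 0, every point of Cebpb below 0, and those of Klf4 on both sides.

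Across probe sets, 15 of 19 were above 0 in LXR-DKO over WT without LPS and 4 below. With LPS, 15 were above 0, 3 below, and 1 gave no ratio. Of the 7 genes with more than 1 probe set, 7 had a common sign over all their probe sets without LPS and 5 with LPS. The exceptions with LPS were Klf4, with opposite signs, and Zbtb46, through the probe set without a ratio. The order of the 9 genes by genotype ratio without LPS was Zbtb46, Irf4, Runx3, Irf8, Spi1, Batf3, Id2, Klf4 and Cebpb. Of the 8 steps between neighbours, those from Irf4 to Runx3, by 2.78 against 2.25, from Runx3 to Irf8, by 2.25 against 1.18, from Spi1 to Batf3, by 0.995 against 0.46, and from Id2 to Klf4, by 0.21 against -0.83, exceeded the pooled SD of 0.46. With LPS the order was Zbtb46, Irf8, Irf4, Runx3, Batf3, Spi1, Id2, Klf4 and Cebpb. The steps from Irf4 to Runx3, from Batf3 to Spi1 and from Spi1 to Id2 were there within the pooled SD of 0.54. The pooled SD belongs to 1 ratio, and a step between genes has a wider spread, so steps only a little above it are not resolved. Without LPS these were Irf4 to Runx3 (0.527) and Spi1 to Batf3 (0.531). With LPS they were Zbtb46 to Irf8 (0.615), Id2 to Klf4 (0.665) and Klf4 to Cebpb (0.635).

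The second comparison asked how LPS changed the lineage factors within each genotype. Klf4 was lower with LPS in both, 2.77-fold in wild-type cells and 2.01-fold in LXR-DKO. Irf8 was 3.53-fold higher with LPS in LXR-DKO and Batf3 2.15-fold higher, against 1.58-fold for Batf3 in WT. In WT, 0 of 9 genes were at least 2-fold higher, beside 2.93% of 11449 genes, and 1 of 9 was lower, beside 4.79%. In LXR-DKO, 2 of 9 were higher, beside 6.23% of 11793 genes, and 1 of 9 was lower, beside 1.82%. The medians of the 9 were 0.24 and 0.36.

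Klf4 had log2 LPS responses of -1.47 and -1.90 on its 2 probe sets in WT and of -1.004 and -0.77 in LXR-DKO. In WT, 2.08% of measured genes had a lower response than Klf4. The LXR-DKO value sat at the 2-fold line, and the count of lower genes there was 0 of 9 under 75th percentile scaling, median ratio centring, the median over probe sets and without a floor. Spi1 was lower with LPS in both genotypes, at -0.45 and -0.62. Cebpb had responses of 0.24 and 0.51 on the brighter probe set and of -0.09 and 0.11 on the other, all but the LXR-DKO value on the brighter one within the pooled SD.

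Irf4 and Runx3 had larger responses in WT than in LXR-DKO. Irf4 responded with 0.89 in WT against 0.20 in LXR-DKO on its brighter probe set, but at 0.11 and -1.44 on the dimmer one. Only 3.65% of measured genes had a higher response in WT than the brighter value. Runx3 stood at 0.74 and 0.19 on the brighter probe set, the other probe set being below the floor in WT. In LXR-DKO the direction for both was not the same on all probe sets, at -0.40 for the second of Runx3. Id2 had no common sign either, with 0.29 and 0.38 on the brightest probe set and -0.73 and -0.84 on the dimmest.

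**Figure D3:**
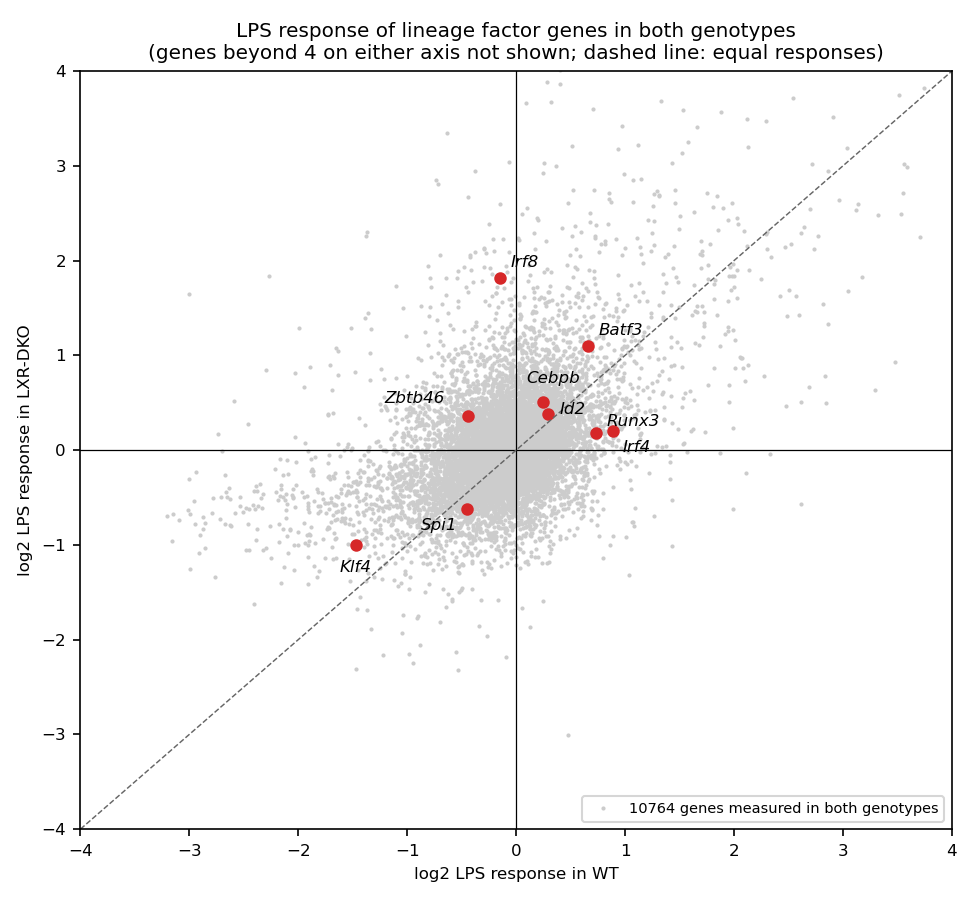
Log2 LPS response in WT (horizontal axis) against that in LXR-DKO (vertical axis) for 10764 genes measured in both genotypes (grey) and the 9 lineage factor genes (red), by the probe set used; the dashed line marks equal responses and genes beyond 4 on either axis are not shown. Irf8 lies far above the line at -0.15 and 1.82, Irf4 and Runx3 below it and Klf4 in the lower left.

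The third comparison set the LPS responses of the genotypes against each other, as LXR-DKO minus WT on the log2 scale. Irf8 had the largest difference of the 9 at 1.97, and 2.18 on its second probe set. Of 12478 genes, 1.42% had a larger one. So 1 of 9 genes differed by at least 2-fold upwards, beside 7.61% of genes, and 0 of 9 downwards, beside 2.07%. Zbtb46 had a difference of 0.80 on the brightest probe set but -0.17, -0.55 and -1.14 on the other 3, the last 2 with values raised to the floor. Irf4 had differences of -0.69 and -1.55, Runx3 of -0.55 and Klf4 of 0.46 and 1.14. Batf3 stood at 0.44, close to the pooled SD of 0.43 for this comparison, and Cebpb at 0.26, Spi1 at -0.17 and Id2 at 0.09 lay within it. These differences use the same arrays as the comparisons above and add no separate evidence.

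Relatives and partners of the 9 factors were described by lists, with the counts of genes at least 2-fold apart in LXR-DKO over WT. For each list, the shares over all measured genes were 12.7% higher and 9.28% lower without LPS. With LPS they were 17.8% higher and 8.76% lower. In lists this short, 1 gene can already lie near such a share. A gene that reached the floor on only 1 of the 2 arrays compared could differ in 1 direction only, so counts over genes at the floor on both arrays are given where they differ. Genes less than 2-fold above the floor on the WT array remain in those counts, although they could not be counted as 2-fold lower. Of 6 other interferon regulatory factors, 2 were higher and 0 lower without LPS, with a median log2 ratio of 0.75, and 2 higher and 0 lower with LPS, with a median of 0.84. Irf5, a factor of macrophage activation, gave 795.7 (WT control), 710.7 (WT LPS), 2306.7 (LXR-DKO control) and 1912.9 (LXR-DKO LPS). Irf9, part of the interferon-activated complex ISGF3, was at 1.11 and 0.57, Irf2 at 0.69 and 1.71 and Irf3 at 0.82 and 0.996. Irf7, which amplifies interferon production, was at 0.68 and -0.21. Of 9 ETS relatives of PU.1, 3 were higher without LPS and 4 with LPS, and 0 were lower in either, with medians of 0.87 and 0.84. At the floor on both arrays were 8 and 7, of which 2 and 2 were higher. All 9 were above 0 in both as deposited, but 8 were with 75th percentile scaling or median ratio centring in both, with quantile normalization without LPS, and with the median over probe sets with LPS. The lowest was Elf1 at 0.010 without LPS and Ets2 at 0.051 with LPS. Spib, for the PU.1 relative of B cells and plasmacytoid DCs, was below the floor in WT at 26.6 and 22.3 and gave 274.9 and 515.0 in LXR-DKO, at least 3.25 and 4.16 on the log2 scale. Etv6 stood at 1.06 and 1.11, Etv3 at 0.87 and 1.34, Elf4 at 1.19 and 0.72, and Ets1 at 0.88 and at least 1.76.

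E proteins, the partners that ID2 blocks, and the other Id genes did not share a direction. Of the 5 measured, 1 was higher and 2 lower without LPS and 2 higher and 1 lower with LPS, with medians of -0.35 and -0.14 that changed sign under some alternatives. Over the 4 at the floor on both arrays without LPS, 1 was higher and 1 lower. Id3 gave 426.9 (WT control), 248.1 (WT LPS), 15.7 (LXR-DKO control) and 57.1 (LXR-DKO LPS). It was thus at least 14.8-fold lower in LXR-DKO without LPS and 4.35-fold lower with LPS. Id1 was lower as well, at 1165.4, 258.2, 315.6 and 161.0 on the same arrays, with ratios of -1.89 and -0.68. The E protein genes Tcf3, at 1.99 and 1.49, and Tcf4, at 0.27 and 1.44, were higher in LXR-DKO, and Tcf12 was at -0.35 and -0.14. Among the Id genes, then, Id2 was above 0 and Id1 and Id3 below 0 in both conditions.

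Of 11 bZIP relatives and partners of BATF3 and C/EBPβ, 2 were higher and 1 lower without LPS and 1 higher and 0 lower with LPS. Their medians were 0.18, with a lowest value of -0.01 among alternatives, and 0.48. Nfil3, a factor of cDC1 development, gave 143.0 (WT control), 200.4 (WT LPS), 314.8 (LXR-DKO control) and 764.3 (LXR-DKO LPS). Batf2 stood at 1.09 and 0.80. Maf, a macrophage factor, gave 272.9, 175.1, 84.8 and 298.7, so it was lower in LXR-DKO without LPS at -1.69 and higher with LPS at 0.77. Among the other C/EBP genes, none of those measured was 2-fold apart. Cebpa stood at 0.07 and -0.41, Cebpd at 0.40 and 0.72 and Cebpg at 0.18 and 0.25.

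Of 7 KLF and RUNX relatives, 1 was higher and 1 lower in each condition, near the shares over all genes. Their medians of 0.42 and 0.19 changed sign under some alternatives. Klf2, a factor of quiescent leukocytes, gave 82.8 (WT control), 40.8 (WT LPS), 410.0 (LXR-DKO control) and 251.2 (LXR-DKO LPS). Klf10 was lower in LXR-DKO at -1.34 and -1.75. Cbfb, for the shared partner of RUNX proteins, was at 0.80 and 0.99, and Runx1 at 0.42 and -0.59.

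Among further lineage factors, 7 of 17 measured were higher and 2 lower in LXR-DKO without LPS, and 8 of 18 higher and 3 lower with LPS, with medians of 0.66 and 0.87. Over the 14 and 13 at the floor on both arrays, 6 and 5 were higher and 2 and 3 lower. Higher were Mycl, the MYC-family gene of DCs, by at least 3.21 and 2.38, and Relb, the NF-kappaB subunit of mature DCs, at 2.20 and 2.64. Relb gave 75.2, 143.2, 346.5 and 890.1 in WT control, WT LPS, LXR-DKO control and LXR-DKO LPS. Myb, a progenitor factor, stood at 2.28 without LPS and at least 2.84 with LPS. Zeb2, a factor of monocytes, plasmacytoid DCs and cDC2, gave 1188.7, 1339.1, 340.1 and 155.6, a ratio of -1.81 and -3.11. Mitf was lower too at -2.17 and -1.94, and Egr2, a macrophage factor, was at -0.52 and -1.83. The further lineage factors thus lay on both sides of 0 in both conditions.

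**Figure D4:**
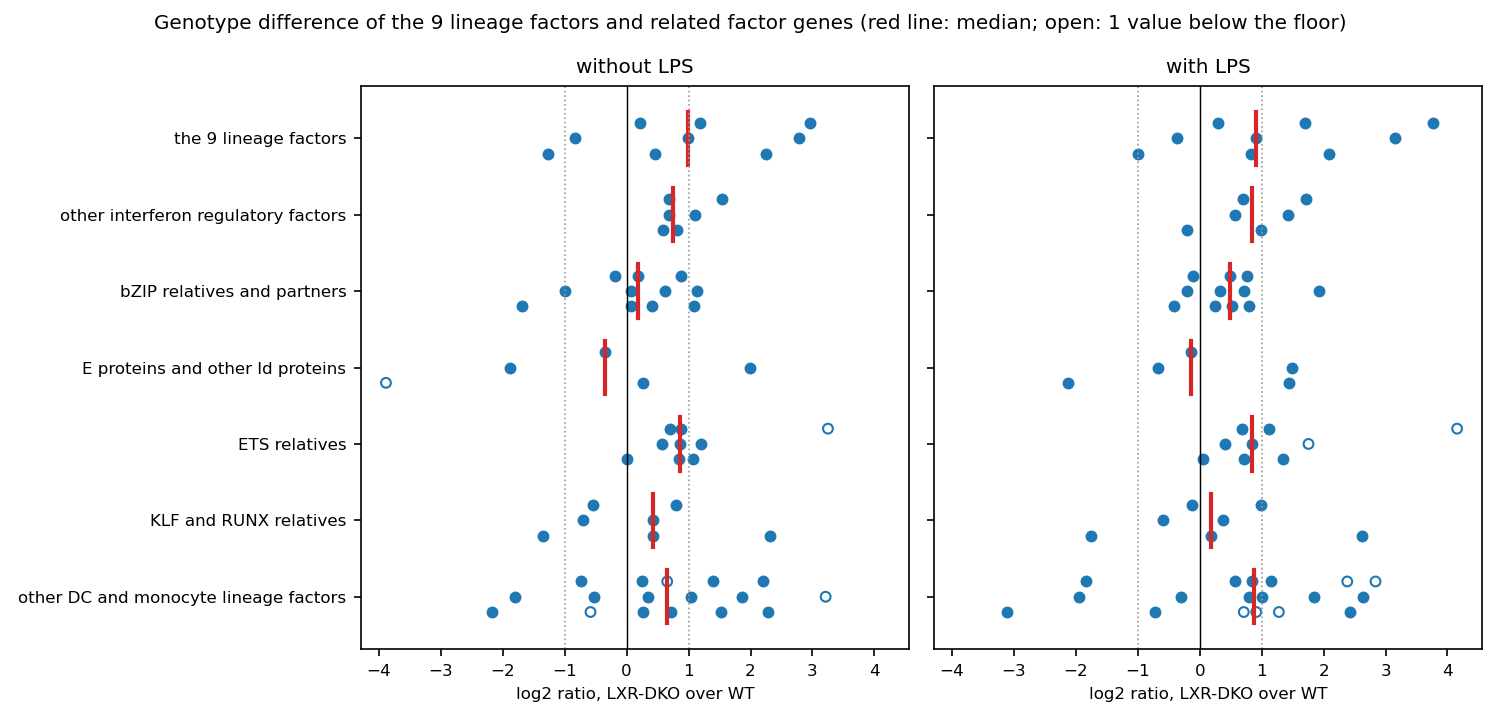
Log2 ratio of LXR-DKO over WT (horizontal axis) without LPS (left) and with LPS (right) for each measured gene of the 9 lineage factors and of 6 lists of related factors; red lines are medians, open points have 1 value below the floor and dotted lines mark 2-fold. All 9 ETS relatives lie above 0 in both panels, though 1 falls below under other scalings, and the E protein and Id list spreads to at least -3.89 without LPS.

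Genes known to be linked to the lineage factors were set beside them. Of 8 genes linked to IRF4, 5 passed 2-fold upwards in LXR-DKO in both conditions and 0 downwards, with medians of 2.95 and 1.99. With LPS, 7 were at the floor on both arrays, of which 5 were higher and 0 lower. Over all measured genes, 12.7% were higher and 9.28% lower without LPS, and 17.8% and 8.76% with LPS. These shares also stand beside the counts of LXR-DKO over WT in the lists below. Mgl2, a lectin gene of cDC2, gave 534.1 (WT control), 86.2 (WT LPS), 5721.2 (LXR-DKO control) and 3988.9 (LXR-DKO LPS). Ciita, which switches on MHC class II genes, gave 80.6, 42.9, 1239.7 and 718.5, and Aldh1a2, for a retinoic acid enzyme, 44.7, 195.2, 936.2 and 1745.5. All 3 were highest on the LXR-DKO arrays, as was Irf4. Aldh1a2 in WT control and Ciita in WT LPS were too near the floor to be counted as 2-fold lower. Sirpa, a cDC2 surface marker, was at -0.47 and -0.49.

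Genes linked to BATF3 and IRF8 in cDC1 did not share a direction. Of 7 measured without LPS, 2 were higher and 2 lower, and of 8 with LPS, 3 were higher and 2 lower. Over the 6 at the floor on both arrays in each condition, 2 were higher in both, and 1 was lower without and 2 with LPS. The medians of -0.40 and -0.18 changed sign under some alternatives. Itgae, for the CD103 integrin, gave 53.5 (WT control), 26.9 (WT LPS), 1354.9 (LXR-DKO control) and 1874.8 (LXR-DKO LPS). Wdfy4, needed for cross-presentation, was higher at 2.42 and 2.23. Rab7b went the other way, at 2273.7, 1955.6, 188.9 and 100.8, and Cadm1 was lower by at least 5.54-fold without LPS and by 3.13-fold with LPS. Xcr1, the defining chemokine receptor of cDC1, was below the floor on all 4 arrays, at 2.9 to 19.6.

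Of 10 myeloid genes linked to PU.1, 1 was higher and 0 lower in LXR-DKO without LPS, and 2 were higher and 1 lower with LPS. Over the 9 at the floor on both arrays with LPS, 1 was higher and 1 lower. The medians were 0.12, which changed sign under some alternatives, and -0.32. Fcgr1, an Fc receptor gene, was higher at 2.06 and 1.65, and Itgam, for the CD11b integrin, was at -0.80 and -1.69. Ctss, for the protease cathepsin S, was at -0.62 and -0.89. Csf3r, the receptor gene of G-CSF, was at 0.34 without LPS and, with WT LPS below the floor, at least 2.21 with LPS. Csf1r, the receptor gene of M-CSF, ranged from 6885.7 to 9551.4.

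Of 8 genes linked to C/EBPβ, 3 were at the floor both without and with LPS in WT, and all 3 (Il6, Il1b and Ptgs2) were at least 2-fold higher with LPS, beside 2.93% of all genes. In LXR-DKO 4 were (Il6, Il1b, Il12b and Lcn2), and all 4 were higher, beside 6.23%. The others were below the floor without LPS, so that only a higher value could be seen. Il6, at 29.3 in WT control and 32.7 in LXR-DKO control, was also too near the floor to be counted as 2-fold lower. The same held for Il12b, at 34.9 in LXR-DKO control. As the list was chosen with earlier results of these data known, setting it beside all genes is not independent of that choice. It describes these genes only and does not measure C/EBPβ. In LXR-DKO over WT with LPS, 6 were at the floor on both arrays. Of these, 2 were higher and 0 lower, beside 17.8% and 8.76% of all genes, while Cebpb itself was lower. These 2 were Il12b, for a subunit of interleukins 12 and 23, with 61.0 in WT LPS and 1016.2 in LXR-DKO LPS, and Lcn2, for an iron-binding granule protein, with 1216.9 and 6861.0. Without LPS, Lcn2 was at least 5.78 higher on the log2 scale and Ptgs2, for cyclooxygenase 2, at least 4.13-fold lower. Nos2 and Arg1, the arginine-using enzymes of macrophages, were below the floor on the other 3 arrays and gave 217.8 and 165.2 in LXR-DKO LPS. Il1b, for interleukin 1β, gave 9011.6 in WT LPS and 7211.8 in LXR-DKO LPS. Values below the floor enter these medians at the floor, so genes with such values are counted at their limit.

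Markers of other cells moved with the genotype as well, and their part in the values of the lineage factors was not tested. B cells use Irf4, Irf8, Spi1 and Spib, granulocyte and monocyte precursors Spi1 and Cebpb, and lymphocytes Id2 and Runx3. Over all probe sets other than controls, 49.0% and 47.8% reached the floor in WT, without and with LPS, and 50.8% and 52.6% in LXR-DKO. These shares stand beside the counts of markers reaching the floor here and below. Of 8 B cell markers, 4 reached the floor on each WT array, 7 without LPS in LXR-DKO and 8 with it, and their summed signal was 2166.1 and 3975.6 in WT and 3735.6 and 7434.0 in LXR-DKO without and with LPS. At the floor on both arrays compared were 4 in each condition, of which 1 passed 2-fold upwards in LXR-DKO and 1 downwards. Over all measured genes, 12.7% passed upwards and 9.28% downwards without LPS, and 17.8% and 8.76% with LPS. The lower one was Blnk, a B cell receptor linker gene, which gave 1686.0 (WT control), 3547.1 (WT LPS), 183.8 (LXR-DKO control) and 1324.1 (LXR-DKO LPS) and made up most of the WT sums. The higher one was Ighm, for the IgM heavy chain, at 162.5, 84.2, 2911.2 and 4119.2, and Cd22 stood at -0.73 and -0.08. Ms4a1, for CD20, gave 20.5 (WT control), 19.1 (WT LPS), 208.4 (LXR-DKO control) and 851.0 (LXR-DKO LPS), and Pax5, the B cell lineage factor, 35.5, 28.9, 51.0 and 37.7. Cd79a and Cd79b were below the floor in WT and gave 114.6 and 117.5 in LXR-DKO control and 397.7 and 420.7 in LXR-DKO LPS. Ebf1 reached the floor only in LXR-DKO LPS, at 34.2. The LXR-DKO LPS array was the highest for Ms4a1, Ighm, Cd79a, Cd79b and Ebf1, but not for Blnk, Cd22 or Pax5. Among the lineage factors it was the highest for Zbtb46, Irf4, Irf8, Batf3, Id2 and Runx3, by the brightest probe set of each.

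Of 11 neutrophil and granulocyte precursor markers, 7 and 6 reached the floor in WT and 11 on each LXR-DKO array. Their sums were 10066.0 and 13037.2 in WT and 23193.7 and 27528.0 in LXR-DKO. At the floor on both arrays compared were 7 without LPS and 6 with LPS. Of these, 3 and 3 passed 2-fold upwards and 2 and 1 downwards. Over all 11, 9 were above 0 without LPS and 10 with LPS, and 2 and 1 below, with medians of 2.36 and 2.495. Of the 11, 4 and 5 were below the floor in WT only, so they could only be higher. S100a8 gave 1594.3 and 1817.2 in WT and 6341.7 and 7255.6 in LXR-DKO, without and with LPS. S100a9 gave 106.4 and 24.8 against 5734.3 and 5366.3, and Ngp 17.5 and 23.2 against 3361.7 and 2308.1. Mmp8 went down in both conditions, at -1.04 and -1.37, and with 7882.0 and 9716.4 made up most of the WT sums. Ctsg went down without LPS, at -1.71. Mpo at 37.0 in WT control, and Camp at 53.3 and Ctsg at 48.1 in WT LPS, were too near the floor to be counted as 2-fold lower. Of 9 mast cell, basophil and eosinophil markers, 5 and 4 reached the floor in WT and all 9 in LXR-DKO, with sums of 559.3 and 750.9 against 1929.7 and 3322.3. At the floor on both arrays compared were 5 without LPS and 4 with LPS. Of these, 3 and 3 passed 2-fold upwards and 0 downwards. Mcpt8 at 50.6 and Fcer1a at 33.5 in WT control, and Cpa3 at 43.8 in WT LPS, were too near the floor to be counted as 2-fold lower. Siglecf gave 114.4 and 64.5 in WT and 699.6 and 417.8 in LXR-DKO, while Gata2 stood at 0.78 and 0.63. Of 11 conventional DC markers, which share Itgae, Xcr1 and Ciita with the lists above, 8 were at the floor on both arrays without LPS and 7 with LPS. Of these, 6 and 6 passed 2-fold upwards in LXR-DKO and 0 downwards, beside 12.7% and 17.8% of all genes that were higher. Itgax, for the CD11c by which the cells were enriched, was below 0 in both conditions, at -0.19 and -0.66. Dpp4 in both conditions and Itgae with LPS were below the floor in WT only. Traf1 at 44.1 and Itgae at 53.5 in WT control, and Ciita at 42.9 in WT LPS, were too near the floor to be counted as 2-fold lower. Flt3, the growth factor receptor gene of conventional DCs, was below the floor in WT and in LXR-DKO control and reached 107.3 in LXR-DKO LPS. Macrophage and monocyte markers summed to 33700.0 and 47242.3 in WT and 48991.3 and 43644.7 in LXR-DKO, with 4 of 11 higher and 2 lower without LPS. With LPS, 4 were higher and 1 lower. Over the 10 and 8 at the floor on both arrays, without and with LPS, 3 and 1 were higher and 2 and 1 lower. The complement genes C1qa, C1qb and C1qc gave 18.0, 108.4 and 41.4 in WT control and 5335.4, 6280.6 and 5386.1 in LXR-DKO control. Without these 3 genes, left out after their values were seen, the sums were 33532.2 and 47238.2 in WT and 31989.2 and 34310.5 in LXR-DKO. The lower genes were Cd68, at -1.31 and -2.06, and Mrc1, for the mannose receptor, at -2.36 and -0.93.

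Plasmacytoid DC markers summed to 1028.3 and 3910.5 in WT and 1208.2 and 2901.0 in LXR-DKO, with 3 and 4 of 7 at the floor in WT and 5 and 6 in LXR-DKO. The defining gene Siglech stayed at or below 31.2. Of 6 T cell markers, 1 and 2 reached the floor in WT and 2 and 5 in LXR-DKO, with sums of 212.3, 225.8, 248.2 and 673.1. The T cell receptor complex genes Cd3e, Cd3g and Cd3d stayed at or below 31.6, while Thy1, which other cells also express, lay between 130.0 and 504.4. Of 6 NK and innate lymphoid markers, at most 2 reached the floor on any array.

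**Figure D5:**
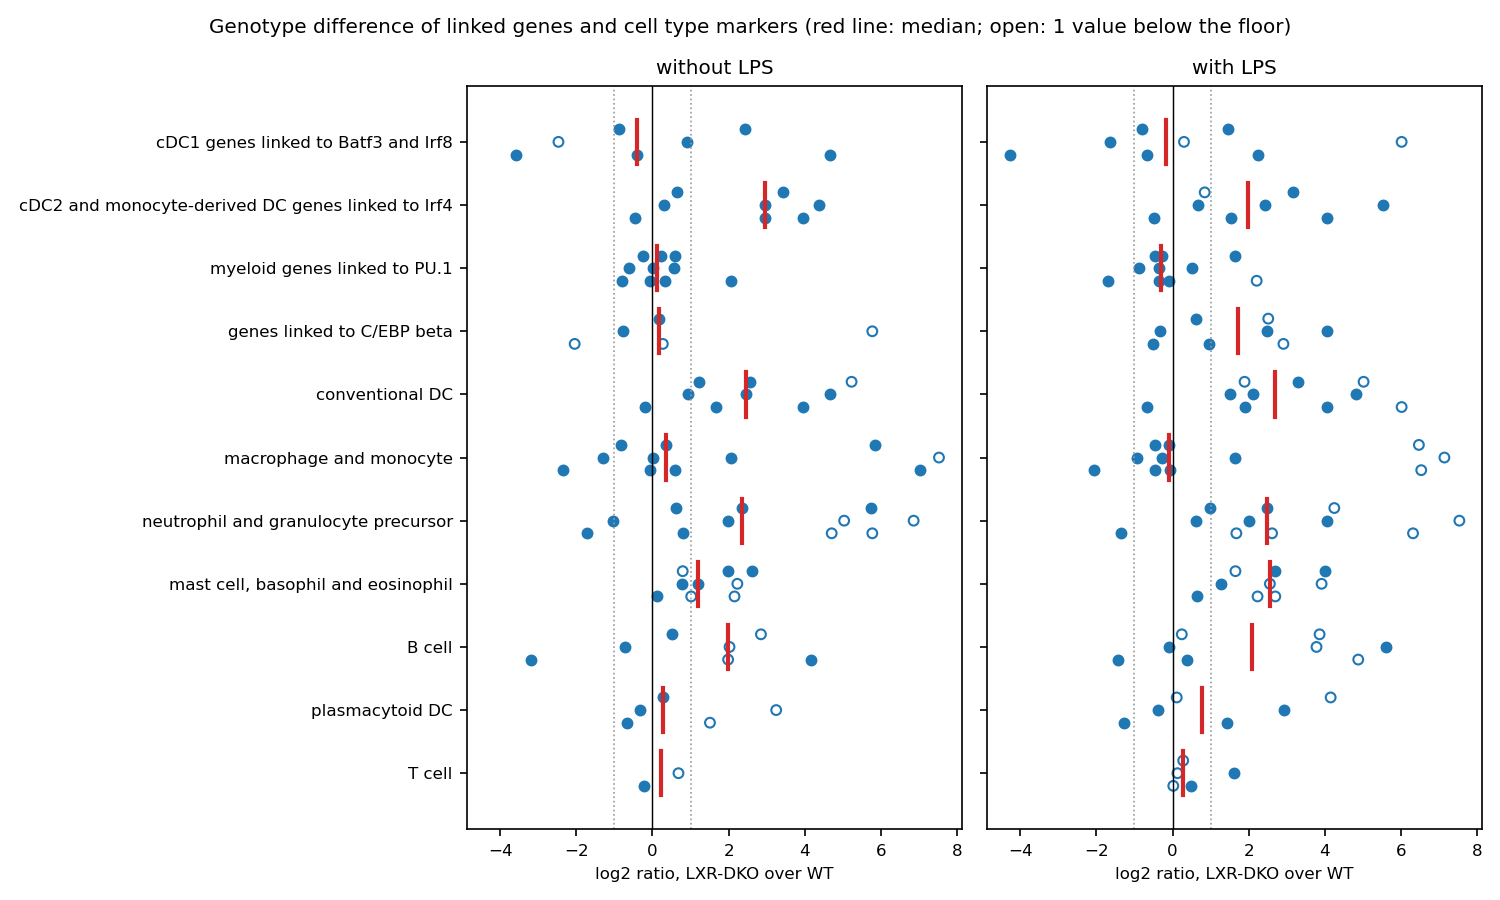
Log2 ratio of LXR-DKO over WT (horizontal axis) without LPS (left) and with LPS (right) for measured genes linked to the lineage factors and for cell type markers; red lines are medians, open points have 1 value below the floor and dotted lines mark 2-fold. The genes linked to Irf4 have medians of 2.95 and 1.99, those linked to PU.1 of 0.12 and -0.32, and B cell markers lie on both sides of 0.

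For each lineage factor, the genes with the most similar profile were found as those with the smallest distance between log2 signals centred over the 4 arrays, among 9622 other genes that reached the floor on every array. Over 4 arrays such likeness describes these arrays only. Irf8 was nearest to Samsn1, at a distance of 0.14 and with signals of 214.8, 207.9, 551.2 and 1890.5 in WT control, WT LPS, LXR-DKO control and LXR-DKO LPS, followed by Tmcc3 and Mzb1. Irf4 was nearest to the kinase gene Jak2, at 0.14 with 630.4, 1254.8, 4232.3 and 5481.9, and then to Ssx2ip and Carmil1. Zbtb46 had no close match, its nearest being Dusp5 at 0.43, Slc2a3 and Zeb1. Runx3 was nearest to Hemk1 at 0.17, Gys1 and Cntrl.

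Cebpb was nearest to Lasp1 at 0.057, with signals of 4252.2, 5278.4, 1806.2 and 2636.4, and then to Sec11c and Tanc1. Spi1 was nearest to E2f8 at 0.036, Rab5c and Rgl2, and Id2 to Parp8 at 0.051, Dnajc4 and Spag9. Batf3 was nearest to Stat5a at 0.098, a signal transducer of GM-CSF, with signals of 365.3, 566.9, 463.7 and 1012.9, and then to Ift57 and Icam1. Klf4 was nearest to Mertk at 0.29, the macrophage receptor gene for apoptotic cells, with 365.8, 137.9, 207.3 and 131.6, and then to Tspan14 and Trim47. No lineage factor shared any of these nearest genes with another, so the lists say nothing particular about Irf8 and Batf3.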

How the data were processed

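RNA of 4 cultures was labelled as biotinylated cRNA and hybridised to 1 array each, per the labels. Per the submitters' processing notes, MAS5 was used; its version and settings are not given in the sources used here. The authors deposited linear intensity and had scaled it: the mean signal without the outer 2% at each end was 200.0 on every array. Of 45101 probe sets, 64 controls were left out. Names came from the platform annotation, and 34754 probe sets matched the RefSeq table of GRCm38.p6 by gene number, with 0 symbols changed.

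No further scaling was applied, and the floor was the median of all signals, 28.9. Each gene was read from its brightest probe set on average. A comparison took in the genes with 1 or more arrays at that floor, to which any lower signal was raised. Genes at least 2-fold apart were counted, with no p-value. The 9 genes and all lists were chosen with earlier results of these data known. In lists of related or linked genes, up to 3 genes with the largest absolute ratios were named, with others added to show both directions. Further genes there, and all genes named from marker lists, were chosen after their values were seen; nearest genes were the 3 closest for each factor. The 9 alternatives covered scaling, floor and choice of probe set. Counting was tested on simulated data with large planted changes and noise smaller than the spread between probe sets here. That checks the counting step only, not how precise the reported counts are. Python 3.11.15, numpy 2.4.6 and pandas 2.3.3 were used.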

Additional observations from a re-analysis of the deposited data

Results flagged for a closer look

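Log2 LPS responses had opposite signs in the genotypes for 2 lineage factors. Irf8 had -0.147 in WT against 1.822 in LXR-DKO. Zbtb46 had -0.442 against 0.363. With 1 array per group these differences were not tested. The signs of Irf8 were the same on both of its probe sets and under all 9 alternatives. Those of Zbtb46 were not, since the median over its probe sets was 0.038 in WT and -0.168 in LXR-DKO. Over the reported value and the alternatives, the WT response of Irf8 ran from -0.264 to -0.013, within the pooled SD of 0.29. Its direction in WT is therefore not resolved. In LXR-DKO the response of Irf8 ran from 1.774 to 1.864.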

How the results depend on the processing

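Of 90 counts of lineage factors under the 9 alternatives, 79 stayed within 1.5 times the reported count and 11 did not. With 75th percentile scaling the count higher with LPS in WT was 1, while 0 were lower with LPS in LXR-DKO and 2 were lower in LXR-DKO over WT without LPS. The count lower with LPS in LXR-DKO was also 0 with median ratio centring, without a floor and with the median over probe sets. The count lower in LXR-DKO over WT with LPS was 0 with quantile normalization, hybridisation control scaling, no floor and the median over probe sets. The median over probe sets gave 1 gene with a lower LPS response in LXR-DKO than in WT, where 0 was reported. The 4 genes higher in LXR-DKO over WT without LPS were 3 with 75th percentile scaling and with the floor of 177.4, and 5 with quantile normalization and hybridisation control scaling; with LPS the count of 4 was 6 with hybridisation control scaling. Of 404 single ratios, 387 moved by less than the spread between probe sets and 17 by more, those of Zbtb46, Irf4 and Id2, with 0 ratios past 2-fold changing sign. Of the list medians past 2-fold, that of B cell markers without LPS in LXR-DKO over WT became -0.017 under the floor of 177.4 (75th percentile), and that of NK and innate lymphoid markers, resting on 1 measured gene, became -0.039 under the floor of 8.8 (25th percentile). The cause was not tested. The median ratio of all genes with LPS, 0.15 as deposited, ran from -0.11 with 75th percentile scaling to 0.39 with hybridisation control scaling. Values near the floor limit Zbtb46 in WT and the second Runx3 probe set. No paired analysis was possible because each group had 1 array.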
